A study of Mus musculus with 7 samples.

Results

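The genes described here encode the effectors of the Gq pathway downstream of the group I metabotropic glutamate receptors, namely the 4 phospholipase C beta isoforms (Plcb1, Plcb2, Plcb3 and Plcb4), 4 isoforms of protein kinase C (Prkca, Prkcb, Prkcd and Prkce) and the IP3 receptor Itpr1. They were taken by symbol, and each of the 9 symbols matched 1 of the 55416 gene identifiers in the count data. RNA-seq was performed on hippocampi, which answers whether the transcripts of this pathway differ after chronic administration of an immunoproteasome inhibitor. The animals were male, age-matched mice of the outbred CD1 strain. ONX-0914 mice received 10 mg/kg of ONX-0914, an inhibitor that targets the immunoproteasome, by intraperitoneal injection 2 times per week for 2 months (2 libraries, replicates 1 and 2). DMSO mice received an equal volume of DMSO by the same route and schedule (2 libraries, replicates 2 and 3), and control mice were untreated (3 libraries, replicates 1 to 3). The labels name no genotype. Nothing ties a library to 1 animal or to pooled animals, so the p-values measure the spread between these libraries.

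In neurons, glutamate binding to the group I metabotropic receptors activates Gq and G11, which switch on phospholipase C beta. The enzyme cleaves the membrane lipid PIP2 into diacylglycerol, which stays in the membrane and activates protein kinase C (the conventional isoforms Prkca and Prkcb, which also need calcium, and the calcium-independent isoforms Prkcd and Prkce), and IP3, which opens the IP3 receptor and releases calcium from the endoplasmic reticulum. In the forebrain Plcb1 is the typical isoform of cortex and hippocampus, whereas Plcb4 and Prkcd are strongly used in the thalamus.

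In the control hippocampus, Prkce, Prkca and Itpr1 were the most abundant of the 9 genes and Plcb4 and Plcb2 the least. In the ONX-0914 libraries, Plcb4 was higher than in every other library, 8.64-fold over the control mean in replicate 1 and 2.12-fold in replicate 2. Prkca, a conventional isoform, was lower than in every other library, at 0.230 and 0.588 of the control mean. Prkcd, a calcium-independent isoform, was 8.36-fold over the control mean in ONX-0914 replicate 1 but 0.667 of it in replicate 2. By edgeR, no comparison of the 3 gave an FDR under 0.05 for any of them, whereas DESeq2 called Plcb4 in both ONX-0914 comparisons and Prkca against control.

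The promoters of Plcb4, Prkcd and Prkca are shown because these 3 genes had the smallest p-values of the 9 between ONX-0914 and control. Each is the 250 bases before the RefSeq start (build GRCm38.p6), 5′ to 3′ on the strand of the gene, with GC boxes (GGGCGG on either strand, including overlapping copies) and the TCF/LEF core (CTTTGA on either strand) in capitals.
Plcb4, chr2:135659297-135659546, plus strand: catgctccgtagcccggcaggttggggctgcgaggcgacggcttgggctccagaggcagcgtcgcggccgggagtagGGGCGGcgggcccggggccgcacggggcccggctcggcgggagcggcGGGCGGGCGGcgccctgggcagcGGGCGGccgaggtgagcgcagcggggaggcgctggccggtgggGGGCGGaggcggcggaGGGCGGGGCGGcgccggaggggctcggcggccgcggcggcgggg
Prkcd, chr14:30626209-30626458, minus strand: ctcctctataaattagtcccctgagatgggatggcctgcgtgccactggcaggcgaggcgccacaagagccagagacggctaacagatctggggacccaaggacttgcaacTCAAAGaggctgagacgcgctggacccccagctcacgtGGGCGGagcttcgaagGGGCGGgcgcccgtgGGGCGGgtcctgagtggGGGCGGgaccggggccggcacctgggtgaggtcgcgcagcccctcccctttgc
Prkca, chr11:108343889-108344138, minus strand: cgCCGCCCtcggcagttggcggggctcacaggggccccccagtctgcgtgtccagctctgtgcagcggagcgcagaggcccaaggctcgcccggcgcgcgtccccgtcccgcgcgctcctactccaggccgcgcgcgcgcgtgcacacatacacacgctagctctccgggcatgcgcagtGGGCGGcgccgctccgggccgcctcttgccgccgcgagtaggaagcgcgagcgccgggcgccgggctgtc
The Plcb4 promoter held 7 GC boxes and 42 CpG at a GC content of 85.2%, the Prkcd promoter 4 GC boxes, 18 CpG and 1 TCF/LEF core at 67.6%, and the Prkca promoter 2 GC boxes and 39 CpG at 76.8%. Among 32851 mouse promoters of this length, the GC box occurred in 32.7% and the TCF/LEF core in 13.8%, and the median GC content was 52.4%. The cAMP response element TGACGTCA, searched in the same way, was in none of the 3 windows and in 1.55% of all promoters. RefSeq also lists a second start for Plcb4 and for Prkcd. A match is a description of the letters and not a binding site, and the counts do not tell which start was used. RefSeq entries matched 7 of the 9 genes, all but Prkce and Itpr1.

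The libraries held 2842675 to 3877006 counts on genes, except ONX-0914 replicate 2 with 13782270. Both ONX-0914 libraries stood apart from the rest and from each other. The summed CPM (counts normalized to library size) of 17 thalamus markers was 171 to 191 in control and 154 to 183 in DMSO, 1475.9 in ONX-0914 replicate 1, where all 17 were above every control library, and 198 in replicate 2, where 8 were above and 5 below. The sum of 14 striatum markers was 834 to 890 in control, 765 to 879 in DMSO, 2626.9 in ONX-0914 replicate 1 and 703 in replicate 2. Markers of CA1, a defining field of the labelled tissue, summed to 712 to 814 in control, 721 to 786 in DMSO, 270 in ONX-0914 replicate 1 and 795 in replicate 2. Those of the dentate gyrus summed to 626 to 781, 572 to 679, 292 and 575. In replicate 1, 1 of 9 CA1 markers was above and 7 were below all control libraries, against 0 and 9 of 10 for the dentate gyrus. In replicate 2, 5 CA1 markers were above and 3 below, and 3 dentate gyrus markers were above and 7 below. These sums of replicate 2 therefore hide opposite differences of single markers. Blood cell markers summed to 35.8 to 43.4 in control, 37.1 to 49.1 in DMSO, 107 in ONX-0914 replicate 1 and 862 in replicate 2. Of the sum in replicate 2, the hemoglobin genes Hbb-bs and Hba-a1 held 388 and 332 CPM, so it does not measure white blood cells. None of the listed markers was at 0 in all control libraries. In bulk RNA, fewer cells of a type and less RNA per cell cannot be told apart, and neither can a difference in dissection. For the 9 genes, the ONX-0914 libraries are therefore given singly, and the Log2FC against control also without either of them.

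**Figure D1:**
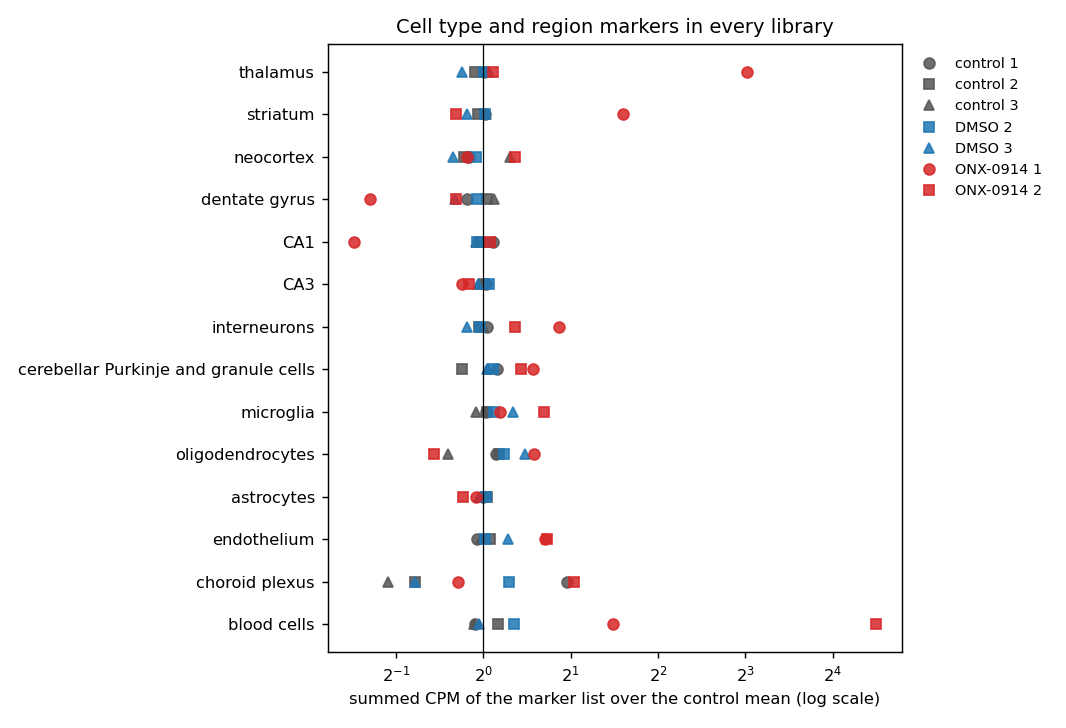
Summed CPM of each marker list in every library, divided by the mean of the 3 control libraries, on a log axis. ONX-0914 replicate 1 lies far to the right for thalamus (8.11-fold) and striatum (3.02-fold) and to the left for CA1 and dentate gyrus, and ONX-0914 replicate 2 lies far to the right for blood cells (22.4-fold).

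Levels between genes were compared as CPM per kb of annotated exon. In control, they ran from 110 ± 6.0 (SD, n = 3) for Prkce to 54.0 ± 1.35 for Prkca, 40.4 ± 1.16 for Itpr1, 27.3 ± 2.05 for Prkcb, 16.96 ± 2.40 for Plcb1, 6.79 ± 0.386 for Prkcd, 4.54 ± 1.32 for Plcb3, 1.44 ± 0.213 for Plcb4 and 0.418 ± 0.185 for Plcb2. The ranges of neighbours in this order did not overlap among the control libraries. In DMSO the order of the means was the same, but the ranges of Prkca (37.5 to 45.7 CPM per kb) and Itpr1 (29.8 to 38.4) overlapped. In ONX-0914 replicate 1 the order was different, with Prkcd first at 56.8 CPM per kb, ahead of Prkce at 43.4, and with Plcb4 (12.4) next to Prkca (12.4) and above Plcb1 (9.44). In ONX-0914 replicate 2 Prkce led at 99.8 CPM per kb, followed by Prkcb at 53.4, and Prkcd (4.53), Plcb4 (3.06) and Plcb3 (2.696) followed Plcb1 (17.4). Exon length was the union of annotated exons, so genes whose long forms are not used in this tissue are set too low.

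**Figure D2:**
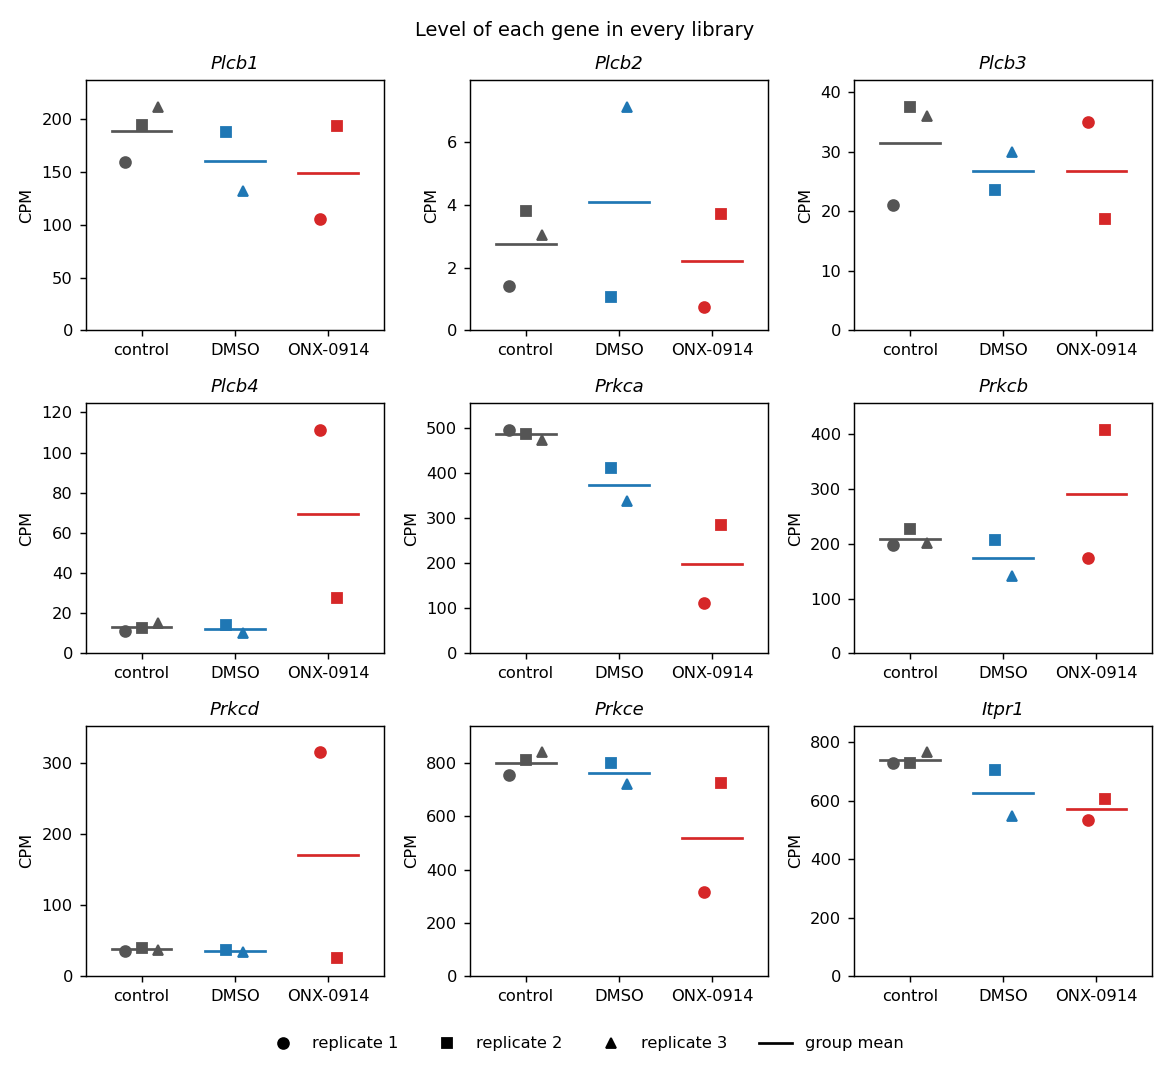
CPM of each of the 9 genes in the 7 libraries, with a linear axis from 0 in each panel; points are libraries, symbols give the replicate number and lines the group means. Plcb4 was above and Prkca below all control and DMSO libraries in both ONX-0914 libraries, and the mean of Prkcd in ONX-0914 rests on replicate 1 (315 CPM against 25.1).

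Among the phospholipase C beta isoforms, Plcb4, the isoform typical of thalamus, retina and cerebellar Purkinje cells, differed most. Its level was 11.1, 12.8 and 14.9 CPM in control replicates 1 to 3, 13.95 and 10.4 CPM in DMSO replicates 2 and 3, and 112 and 27.4 CPM in ONX-0914 replicates 1 and 2. Both ONX-0914 libraries lay above all 5 others. The Log2FC between ONX-0914 and control was 2.40 ± 0.51 (SE), with FDR = 0.100 by edgeR's quasi-likelihood test over all genes. The gene did not pass the threshold, whereas DESeq2 called it at FDR = 4.13e-04 with the same Log2FC of 2.40. Without ONX-0914 replicate 1, the Log2FC of Plcb4 was 1.06 (edgeR FDR = 1.56e-04), and without replicate 2 it was 3.09 (FDR = 2.31e-11). In these fits the lone ONX-0914 library is assumed to vary like the other groups. The thalamus marker sum, given above, was 8.11 times the control mean in ONX-0914 replicate 1 and 1.09 times in replicate 2, where Plcb4 was 8.64 and 2.12 times, and the part of such RNA in the difference was not tested.

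Plcb1, the main isoform of hippocampal pyramidal neurons, gave 159, 194 and 212 CPM in control, 188 and 132 CPM in DMSO and 105 and 194 CPM in ONX-0914. ONX-0914 replicate 1 was the lowest of the 7 libraries, replicate 2 was within the control range, and the groups overlapped. The Log2FC between ONX-0914 and control was -0.33 ± 0.29 (SE, edgeR FDR = 0.542). Without ONX-0914 replicate 2 it was -0.85 and called (edgeR FDR = 0.00124), and without replicate 1 it was 0.025. The CA1 and dentate gyrus sums were 0.358 and 0.410 of the control mean in replicate 1. In replicate 2 these sums were 1.06 and 0.806 of it, with single markers both above and below all control libraries. The part of these regions was not tested.

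Plcb3, a widely used isoform, gave 21.0, 37.6 and 36.1 CPM in control, 23.6 and 30.0 CPM in DMSO and 35.0 and 18.8 CPM in ONX-0914. The control libraries alone covered most of this range, and the Log2FC between ONX-0914 and control was -0.27 ± 0.34 (SE, edgeR FDR = 0.689). Leaving out ONX-0914 replicate 2 gave 0.12, and leaving out replicate 1 gave -0.79, which was called (edgeR FDR = 0.0050). Plcb2, an isoform of blood cells, was near the limit of detection with 3 to 20 counts in the 6 smaller libraries and 56 in ONX-0914 replicate 2. Its level was 1.43, 3.82 and 3.03 CPM in control, 1.07 and 7.14 CPM in DMSO and 0.755 and 3.70 CPM in ONX-0914, and the groups overlapped. At this depth no difference in Plcb2 was detectable (Log2FC -0.08 ± 0.79, SE, edgeR FDR = 0.968). Blood cell markers, mainly hemoglobin genes, were 22.4 times the control mean in ONX-0914 replicate 2, where Plcb2 was 1.34 times. The part of blood cells in its level was not tested.

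The make-up of the phospholipase C beta transcripts, as shares of their summed CPM per kb, differed in ONX-0914 replicate 1. Plcb1 made up 70.2% to 76.2% in control, 76.8% and 64.5% in DMSO, 35.0% in ONX-0914 replicate 1 and 73.4% in replicate 2. Plcb4 made up 5.74% to 6.55% in control, 7.06% and 6.26% in DMSO, 46.0% in ONX-0914 replicate 1 and 12.9% in replicate 2. Thus the Plcb4 share was highest in both ONX-0914 libraries, while the Plcb1 share of replicate 2 was within the control range.

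**Figure D3:**
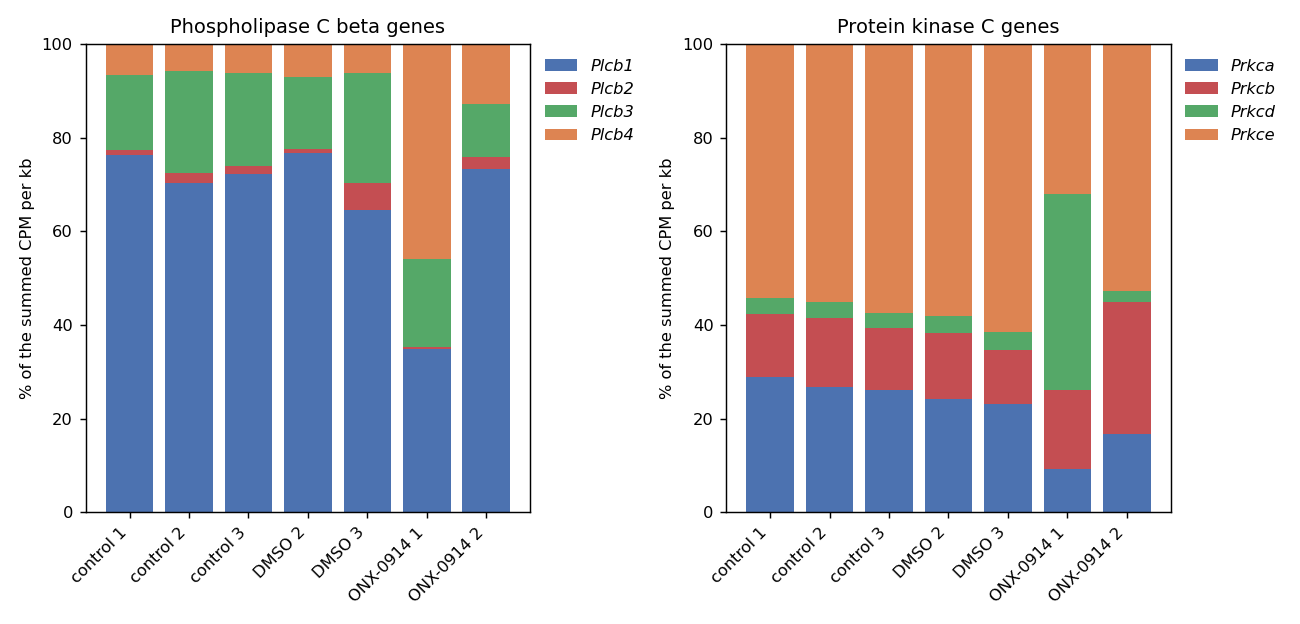
Shares of the summed CPM per kb of the 4 phospholipase C beta genes (left) and of the 4 protein kinase C genes (right), 1 bar per library. Plcb4 takes 46.0% and Prkcd 42.0% in ONX-0914 replicate 1, against at most 7.06% and 3.75% in the control and DMSO libraries.

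Of the protein kinase C isoforms, Prkca, a conventional isoform activated by calcium and diacylglycerol, had 497, 488 and 473 CPM in control, 411 and 337 CPM in DMSO and 112 and 285 CPM in ONX-0914. The 3 groups did not overlap, with control the highest and ONX-0914 the lowest. The Log2FC was -1.29 ± 0.36 (SE) between ONX-0914 and control (FDR = 0.144, edgeR) and -0.38 ± 0.34 between DMSO and control (FDR = 0.9999). DESeq2 called the first difference at FDR = 0.0143 with a Log2FC of -1.30. Leaving out ONX-0914 replicate 1 gave a Log2FC of -0.78 for Prkca (edgeR FDR = 3.94e-05), and leaving out replicate 2 gave -2.13 (FDR = 2.69e-10). The CA1 and dentate gyrus sums were 0.358 and 0.410 of the control mean in ONX-0914 replicate 1, where Prkca was 0.230 of it. In replicate 2, where Prkca was 0.588 of it, these sums were 1.06 and 0.806. There, single markers of both lists lay above and others below all control libraries. The part of these regions in the difference was not tested.

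Prkcd, which needs diacylglycerol but not calcium, had 36.0, 40.1 and 36.9 CPM in control, 37.3 and 33.6 CPM in DMSO and 315 and 25.1 CPM in ONX-0914. The 5 libraries without ONX-0914 lay close together, with ONX-0914 replicate 1 far above them and replicate 2 below them. The Log2FC between ONX-0914 and control was 2.16 ± 0.77 (SE, FDR = 0.205, edgeR), and this mean describes neither library. It was 3.06 without replicate 2 (FDR = 9.63e-14) and -0.60 without replicate 1 (FDR = 0.00426), a change of direction that rests on 1 library. The thalamus marker sum was 8.11 times the control mean in the library where Prkcd was 8.36 times, and 1.09 times where Prkcd was 0.667 times, and its part in the result was not tested.

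Prkce, the other calcium-independent isoform, had 753, 810 and 839 CPM in control, 800.0 and 723 CPM in DMSO and 315 and 725 CPM in ONX-0914. Both ONX-0914 libraries were below all control libraries, replicate 2 only slightly, and replicate 2 lay between the DMSO libraries. The Log2FC between ONX-0914 and control was -0.62 ± 0.32 (SE, edgeR FDR = 0.330), with -1.35 without replicate 2 (FDR = 4.02e-08) and -0.15 without replicate 1 (FDR = 0.273). In ONX-0914 replicate 1, Prkcd and Prkce had the same count of 1251, and Plcb4 and Prkca the same count of 443, each on its own identifier. Prkcb, the conventional isoform that is also abundant in immune cells, had 198, 227 and 202 CPM in control, 207 and 142 CPM in DMSO and 174 and 409 CPM in ONX-0914. ONX-0914 replicate 2 was the highest of the 7 libraries and replicate 1 was below control. The Log2FC of Prkcb was 0.48 ± 0.33 (SE, edgeR FDR = 0.447), 0.96 without replicate 1 (FDR = 1.30e-05) and -0.27 without replicate 2 (FDR = 0.290). Microglia markers were 1.62 times, blood cell markers (mainly hemoglobin genes) 22.4 times and neocortex markers 1.29 times the control mean in replicate 2. In replicate 1 these sums were 1.14, 2.79 and 0.881 times it. The part of these cells was not tested.

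Within the 4 protein kinase C genes, Prkcd made up 3.31% to 3.57% of the summed CPM per kb in control, 3.55% and 3.75% in DMSO, 42.0% in ONX-0914 replicate 1 and 2.39% in replicate 2. Prkca made up 26.1% to 28.9% in control, 24.1% and 23.2% in DMSO, and 9.16% and 16.8% in ONX-0914. Prkcb made up 16.8% and 28.2% in ONX-0914 replicates 1 and 2, against 11.5% to 14.6% in the libraries without ONX-0914. Both ONX-0914 libraries thus had a lower share of Prkca and a higher share of Prkcb than the 5 others, and Prkcd had a higher share in replicate 1 alone. The level of Prkcb itself was 0.835 of the control mean in replicate 1 and 1.96 times it in replicate 2. Its higher share in replicate 1 came with a lower sum, 135 CPM per kb. That sum was 191 to 203 in control, 189.8 and 161.6 in DMSO and 189.5 in replicate 2.

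Itpr1, the IP3 receptor of most central neurons, had 728, 727 and 764 CPM in control, 704 and 547 CPM in DMSO and 535 and 605 CPM in ONX-0914. All DMSO and ONX-0914 libraries were below control, and those of DMSO and ONX-0914 overlapped. The Log2FC was -0.38 ± 0.19 (SE, edgeR FDR = 0.321) between ONX-0914 and control and -0.24 ± 0.19 (FDR = 0.9999) between DMSO and control. It was called without ONX-0914 replicate 2 (-0.47, FDR = 0.0130) and not without replicate 1 (-0.30, FDR = 0.0573). Of the 9 genes, Itpr1 differed least between the ONX-0914 libraries, by 1.13-fold.

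Between ONX-0914 and control, edgeR called 0 of the 9 genes, against 15 of 13152 genes tested (0.114%). At an unadjusted p under 0.05, 3 of the 9 (Plcb4, Prkcd and Prkca) stood beside 18.6% of all genes, and DESeq2 called 2 (Plcb4 and Prkca) beside 3.01%. Without a filter on low counts, edgeR called 3 (Plcb4, Prkcd and Prkca) beside 2.15% of the genes. Without ONX-0914 replicate 1, 5 of the 9 were called beside 51.2% of all genes, and without replicate 2, 6 were called beside 19.0%. Plcb4, Prkca, Prkce and Itpr1 had the same sign in both of these fits, and the other members, Prkcd among them, had opposite signs. The median Log2FC of the 9 genes was -0.27, with 3 higher and 6 lower, against 0.05 over all genes. Library scaling by total counts in place of TMM moved the median of all genes to 0.19 and that of the 9 genes to -0.14, with 4 higher and 5 lower. The median of the 9 genes was -0.15 with ONX-0914 replicate 1 left out and -0.47 with replicate 2 left out.

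In both ONX-0914 libraries, 1 of the 9 genes (Plcb4) was above all control libraries, beside 16.9% of all genes, and 3 (Prkca, Prkce and Itpr1) were below, beside 16.3%. Against control and DMSO libraries together, 1 (Plcb4) was above beside 11.4% and 1 (Prkca) below beside 11.3%. With total counts, 2 in place of 3 were below control.

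DMSO was also set against control, a comparison that joins the vehicle with the injections, since control mice were untreated. None of the 9 genes was called (0 at an unadjusted p under 0.05 and 0 by DESeq2), with 0.0152% of all genes called by edgeR, 2.65% at an unadjusted p under 0.05 and 0.0684% by DESeq2. The Log2FC ranged from -0.38 ± 0.34 (SE) for Prkca to 0.43 ± 0.87 for Plcb2, and 8 of the 9 were negative, with a median of -0.24 against -0.0032 over all genes. The size of that median rests on DMSO replicate 3, since it was -0.017 without this library and -0.33 without DMSO replicate 2, while 8 of the 9 were negative in both of these fits. Prkca and Itpr1 were below control in both DMSO libraries (15% of all genes were), and 0 genes were above (15.7% of all genes were). For Plcb4 and Prkcd the Log2FC was -0.08 ± 0.57 and -0.09 ± 0.80. In an edgeR fit of the control and DMSO libraries alone, 0 of the 9 genes were called (1.11% of all genes were) and 2 had an unadjusted p under 0.05 (15% of all genes had). These were Prkca, with a Log2FC of -0.37 ± 0.099 (SE, FDR = 0.0729), and Itpr1, with -0.24 ± 0.10 (FDR = 0.267).

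With DMSO in place of control as the reference, 0 of the 9 genes passed in ONX-0914 by edgeR (0.0456% of all genes did). At an unadjusted p under 0.05, 3 stood beside 14.7% of all genes, with a Log2FC of 2.48 ± 0.60 (SE, FDR = 0.171) for Plcb4, 2.25 ± 0.89 (FDR = 0.303) for Prkcd and -0.91 ± 0.38 (FDR = 0.325) for Prkca. DESeq2 called 1 (Plcb4), beside 2.20% of all genes. This comparison shares the ONX-0914 libraries with the one against control, and the one of DMSO with control shares the control libraries, so the values stand side by side and are not independent.

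**Figure D4:**
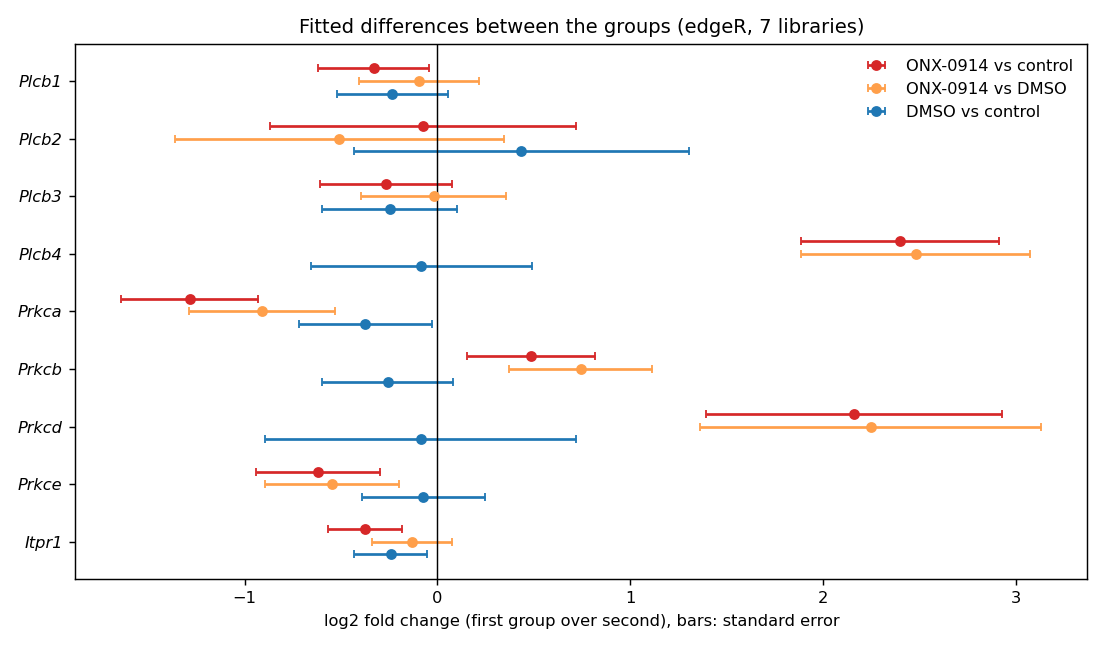
Log2FC (points) and standard errors (bars) of the 9 genes from edgeR in ONX-0914 against control, ONX-0914 against DMSO and DMSO against control. Plcb4 (2.40 and 2.48) and Prkcd (2.16 and 2.25) lie to the right and Prkca (-1.29 and -0.91) to the left in the ONX-0914 comparisons, and the widest bars are those of Plcb2 and Prkcd.

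The rest of the pathway was described by 107 genes in 11 lists, of which 98 were tested. Between ONX-0914 and control, edgeR called 0 of the 98 (0.114% of all genes) and DESeq2 5 (3.01% of all genes). At an unadjusted p under 0.05, 12 were higher and 16 lower, 28 in all beside 18.6% of all genes, and the median Log2FC over all 98 was -0.05 against 0.05 over all genes. The remaining genes of the lists did not pass the filter on low counts, and 4 of the 98 (Bdkrb2, P2ry1, Ntsr1 and Prkd2, named after their values were seen) passed it only through the ONX-0914 libraries. Without these 4, 27 had an unadjusted p under 0.05 and the median was -0.063. Between DMSO and control, edgeR called 0 and DESeq2 0, and 0 had an unadjusted p under 0.05 (2.65% of all genes had). There, 65 of the 98 had a negative Log2FC, with a median of -0.073 against -0.0032 over all genes. Between ONX-0914 and DMSO, edgeR called 0 and DESeq2 3 (2.20% of all genes), with 21 at an unadjusted p under 0.05 (14.7% of all genes). In that comparison the median had the other sign, at 0.090 (0.073 without the 4) against 0.048 over all genes, with 57 of the 98 positive.

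Among the receptors at the head of the pathway, Grm5, which encodes mGluR5, had 268, 243 and 238 CPM in control, 240 and 244 CPM in DMSO and 150 and 192 CPM in ONX-0914. Both ONX-0914 libraries were below all others (Log2FC -0.55 ± 0.18, SE, edgeR FDR = 0.176). Of 19 other Gq-coupled receptors listed, 4 were too low to be tested, and 3 of the 15 tested passed the filter only through the ONX-0914 libraries. The following counts describe the other 12. Between ONX-0914 and control, 9 had a positive Log2FC, with a median of 0.82 against 0.05 over all genes, 5 had an unadjusted p under 0.05 beside 18.6% of all genes, and 0 were called by edgeR. Their median was 0.54 against DMSO, and against control it was 0.80 with ONX-0914 replicate 1 left out and 0.11 with replicate 2 left out. The thalamus and striatum sums of replicate 1 and the blood cell sums of both ONX-0914 libraries, given above, were higher too. Endothelium markers summed to 1.63 and 1.66 times the control mean in ONX-0914 replicates 1 and 2, where 8 and 10 of 10 were above all control libraries. In replicate 2, choroid plexus, microglia and interneuron markers summed to 2.05, 1.62 and 1.29 times the control mean, and neocortex markers to 1.29 times. In replicate 1 these 4 sums were 0.819, 1.14, 1.825 and 0.881 times it. The choroid plexus sum varied within control, from 47.4 to 196 CPM, beside 207 in replicate 2. The part of these cell types and regions was not tested. Adra1b, an alpha-1 adrenergic receptor, was measured at 0.713 to 4.68 CPM in control, 3.22 and 0.714 CPM in DMSO, and 21.4 and 7.60 CPM in ONX-0914 (Log2FC 2.43 ± 0.69, SE, edgeR FDR = 0.151). The control and DMSO levels of Adra1b were low, so the size of its Log2FC is uncertain.

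For the genes of the G protein itself, the ONX-0914 libraries differed in direction. Gnaq, encoding Gq alpha, had a Log2FC of -0.24 ± 0.25 (SE, edgeR FDR = 0.618) and Gna11 one of -0.02 ± 0.21 (FDR = 0.971), or 0.13 with total counts. Leaving out ONX-0914 replicate 1 gave 0.10 for Gnaq and 0.25 for Gna11, and leaving out replicate 2 gave -0.71 and -0.37. All 5 tested RGS genes, whose products speed up the switching off of the G protein, had a positive Log2FC with a median of 0.70, 2 of them at an unadjusted p under 0.05 beside 18.6% of all genes. That median was 0.022 with ONX-0914 replicate 1 left out, where 4 were positive, and 0.95 with replicate 2 left out. The thalamus and striatum sums were 8.11 and 3.02 times the control mean in ONX-0914 replicate 1 and 1.09 and 0.809 times in replicate 2, and their part was not tested. Rgs4 had 249, 174 and 258 CPM in control, 262 and 209 CPM in DMSO and 680 and 373 CPM in ONX-0914 (Log2FC 1.21 ± 0.29, SE, edgeR FDR = 0.117). Homer1, a scaffold that links mGluR5 to the IP3 receptor, was measured at 69.5 to 84.9 CPM in control, 132 and 112 CPM in DMSO, and 55.9 and 200.3 CPM in ONX-0914 (Log2FC 0.76 ± 0.43, SE, edgeR FDR = 0.369). Homer3, another scaffold, was measured at 28.1 to 32.2 CPM in control, 25.2 and 28.9 CPM in DMSO, and 5.79 and 18.8 CPM in ONX-0914 (Log2FC -1.22 ± 0.40, SE, edgeR FDR = 0.181).

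Around the lipid substrate and the second messengers, the medians of the 4 lists ran from a Log2FC of -0.25 to 0.11 in ONX-0914 against control, from -0.33 to -0.025 with ONX-0914 replicate 1 left out and from -0.51 to 0.43 with replicate 2 left out. Of 14 genes of PIP2 supply, 13 had a negative Log2FC between ONX-0914 and control with TMM, but 7 with total counts, 9 with ONX-0914 replicate 1 left out and 10 with replicate 2 left out. Pip4k2c, a PIP kinase, was measured at 219 to 236 CPM in control, 217 and 221 CPM in DMSO, and 118 and 148 CPM in ONX-0914 (Log2FC -0.77 ± 0.17, SE, edgeR FDR = 0.105). Of 12 other phospholipase C genes, 7 had a positive Log2FC between ONX-0914 and control (9 with total counts, 6 with ONX-0914 replicate 1 left out). Plcxd2 was the one with the smallest p (0.97 ± 0.26, SE, edgeR FDR = 0.136). Against DMSO, 10 of the 12 were positive (median 0.43), and between DMSO and control 10 were negative (median -0.20). Of 11 diacylglycerol kinases and lipases, 9 had a negative Log2FC between ONX-0914 and control (7 with total counts, 6 with ONX-0914 replicate 1 left out). Among them was Dgkb (-0.63 ± 0.17, SE, edgeR FDR = 0.146), which converts diacylglycerol to phosphatidic acid. DMSO injection gave a like count, with 10 of these 11 negative between DMSO and untreated control (median -0.32, against -0.25 for ONX-0914). The size of that DMSO median rests on DMSO replicate 3. With 12 genes of the list fitted, it was -0.080 without this library and -0.45 without DMSO replicate 2. Between ONX-0914 and DMSO, 7 of the 11 were positive (median 0.056). Inpp5a, the phosphatase that ends the IP3 signal, was measured at 22.03 to 28.4 CPM in control, 26.6 and 27.1 CPM in DMSO, and 47.1 and 43.2 CPM in ONX-0914 (Log2FC 0.87 ± 0.19, SE, edgeR FDR = 0.100). For Inpp5a the ONX-0914 libraries were alike and lay above all 5 others.

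Downstream, of 8 other protein kinase C and D genes, 1 passed the filter only through the ONX-0914 libraries, and of the other 7, 3 had a positive and 4 a negative Log2FC. Of 14 substrates and anchors of protein kinase C, 10 had a negative Log2FC, with a median of -0.41, which was -0.64 and -0.29 with ONX-0914 replicate 1 or 2 left out. An unadjusted p under 0.05 was reached by 6 of them (18.6% of all genes), and 7 were below all control libraries (16.3% of all genes). CA1 and dentate gyrus markers summed to 0.358 and 0.410 of the control mean in ONX-0914 replicate 1, with thalamus markers at 8.11 times it. In replicate 2 these sums were 1.06, 0.806 and 1.09 times the control mean, with markers of each list both above and below all control libraries. The part of these regions was not tested. Add2, a cytoskeletal substrate, was measured at 596 to 720.1 CPM in control, 541 and 495 CPM in DMSO, and 297 and 429 CPM in ONX-0914 (Log2FC -0.84 ± 0.22, SE, edgeR FDR = 0.133).

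**Figure D5:**
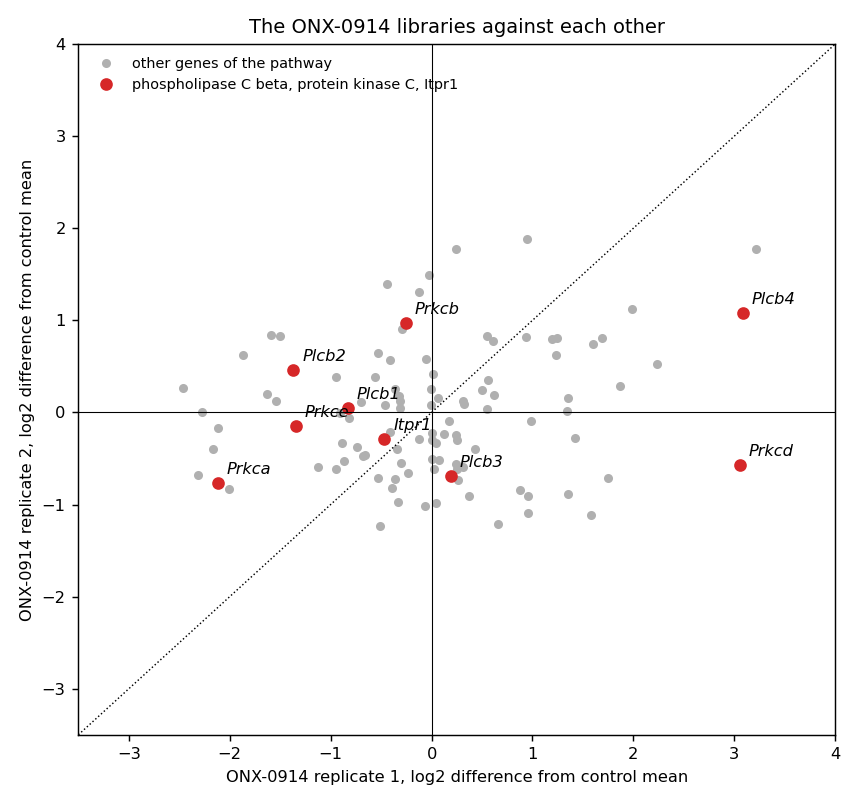
Log2 difference from the control mean in ONX-0914 replicate 1 (horizontal axis) and replicate 2 (vertical axis) for the 9 genes (red, named) and the 98 other tested genes of the pathway (grey), with the line of equal values dotted. Plcb4 is to the upper right, Prkca to the lower left, and Prkcd to the lower right, where the replicates go opposite ways.

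The genes whose pattern over the 7 libraries was most like each of the 4 most variable members were found by the root-mean-square (RMS) difference of log2 CPM, centred on the control mean. For Plcb4 these included Slc17a6 (0.16), a vesicular glutamate transporter, and Plekhg1 (0.18). Both are also in the thalamus list. For Prkcd they were Amotl1 (0.13), Tmie (0.32) and Ngb (0.36), and Amotl1 was measured at 32.7 to 33.9 CPM in control, 30.6 and 31.4 CPM in DMSO, and 277 and 27.0 CPM in ONX-0914. For Prkca they included Cnksr2 (0.07) and Slc8a2 (0.10), a sodium and calcium exchanger. For Plcb2, at low counts, they were Zfp661 (0.38), 1700001L05Rik (0.41) and AI115009 (0.42). These are descriptions over 7 libraries, and for Plcb4, Prkcd and Prkca the library farthest from the control mean was ONX-0914 replicate 1.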

How the data were processed

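RNA-seq of CD1 mouse hippocampus was analysed in 7 libraries grouped by the labels (3 control, 2 DMSO, 2 ONX-0914). The authors deposited raw counts of reads per gene, 1 table per library, made from directional single-end libraries. The submitters' processing notes name Trimmomatic 0.39, STAR 2.7.3a, featureCounts 2.00 and the build GRCm39. The strand setting and the annotation are not given in the sources used here, so reads in overlapping exons cannot be assigned with certainty (22 to 472 bases for Plcb1, Plcb3, Prkca, Prkce and Itpr1). Of the reads, 89.6% to 91.4% were assigned to genes, and the others stayed out of the library sizes.

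Symbols and exon lengths came from GENCODE M21 (52083 of 55416 identifiers) and promoters from RefSeq. Because the counts and this annotation use different builds, coordinates are given for the RefSeq promoters alone, in GRCm38.p6. In R 4.3.3, genes were filtered by filterByExpr (13152 kept), scaled by TMM and tested with edgeR 4.0.16 (glmQLFit with legacy = FALSE, glmQLFTest, 1 mean per group, all 7 libraries), with Benjamini-Hochberg adjustment over all genes tested and a threshold of 0.05. FDR is that adjusted p. Log2FC is that of the model, with standard errors from the F statistics, and CPM used the TMM-scaled totals. Likeness was measured on log2 CPM (prior count 2). The edgeR fit was also tested on simulated data. No pair of libraries agreed within sampling noise (chi-square per degree of freedom of at least 2.50). The alternatives were DESeq2 1.42.0, other scalings and filters, a robust fit, the compared groups alone, the replicate number as a block, control and DMSO together, and each library left out. The earlier form of the edgeR fit and the scalings of the counts of non-overlapping genes were added after seeing the data. The 9 genes and all lists were chosen with earlier results of these data known. Genes named beside the 9 were Grm5, Gnaq, Gna11, Homer1, the gene of smallest p under 0.05 in each pathway list and 3 genes of likeness for each of 4 members, and some results of these rules are not reported here. The electrophysiology was not analysed here.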

Additional observations from a re-analysis of the deposited data

How the results depend on the processing

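Between ONX-0914 and control, the 15 genes called became 388 with DESeq2, 578 without a filter on low counts, 3 with the compared groups alone, 1 with the replicate block, 343 against control and DMSO together, and 0 to 7023 with each library left out (3 without either DMSO library, 0 without any 1 control library, 7023 with ONX-0914 replicate 1 left out and 2594 with replicate 2 left out). Of the 9 genes, 0 became 2 with DESeq2, 3 without a filter, 1 (Plcb4, FDR = 0.0213) against control and DMSO together, and 0 to 6 with a library left out. Of the pathway lists, 0 became 5, 5, 6 and 0 to 57. Between DMSO and control, the 2 genes called became 9 with DESeq2, 11 without a filter, 0 with at least 10 counts in every library, 141 with the compared groups alone, 0 with the block and 0 to 146 with a library left out (131 with ONX-0914 replicate 1 left out and 146 with replicate 2 left out). The pathway count of 0 became 1 with the groups alone and 0 to 1 with a library left out. Between ONX-0914 and DMSO, the 6 genes called became 245 with DESeq2, 11 with RLE size factors, 3 with total counts, 297 without a filter, 10 with at least 10 counts, 0 with the groups alone, 0 with the block and 0 to 6313 with a library left out. Of the 9 genes, 0 became 1 with DESeq2, 2 without a filter and 0 to 5, and of the pathway lists, 0 became 3, 5 and 0 to 54. These alternatives differ in the number of libraries, the set of genes tested or the method. With an ONX-0914 library left out, the difference between the ONX-0914 libraries also does not enter the spread. The cause of the changed counts was not tested.

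The Log2FC between ONX-0914 and control changed sign for Plcb2 with total counts (0.087) and the replicate block (0.28), and for Gna11 with total counts (0.13), no filter (0.0068) and at least 10 counts (0.0076). With a library left out it ran from -0.85 to 0.025 for Plcb1, -1.88 to 0.36 for Plcb2, -0.79 to 0.12 for Plcb3, -0.27 to 0.96 for Prkcb, -0.60 to 3.06 for Prkcd, -0.71 to 0.10 for Gnaq, -0.37 to 0.25 for Gna11 and -0.45 to 1.38 for Homer1. Between DMSO and control the block gave -0.10 for Plcb2, 0.15 for Plcb4 and 0.29 for Prkcd, and leaving out a library gave -1.38 to 1.32 for Plcb2 and -0.33 to 0.10 for Plcb4. Between ONX-0914 and DMSO, total counts gave 0.052 for Plcb1, 0.10 for Plcb3 and 0.0032 for Itpr1. The block gave 0.055 for Plcb1, 0.37 for Plcb2 and 0.11 for Plcb3, and Plcb3 was 0.00090 without a filter and 0.0064 with at least 10 counts. Leaving out a library gave -0.62 to 0.26 for Plcb1, -2.24 to 1.30 for Plcb2, -0.51 to 0.40 for Plcb3, -0.014 to 1.21 for Prkcb, -0.51 to 3.14 for Prkcd and -0.31 to 0.054 for Itpr1. Of the Log2FC of single genes over all alternatives, 544 kept direction and side of the threshold, 59 passed it newly and 38 changed sign. In ONX-0914 against control, Plcb4 (1.06 to 3.09) and Prkca (-2.13 to -0.78) kept their direction under all 17 alternatives, with an FDR of 2.31e-11 to 0.397 and of 2.69e-10 to 0.416. The deviations of same-numbered libraries from their group means had correlations of -0.0963 to 0.064. In a group of 2 libraries these deviations mirror each other, so this check cannot tell whether the samples share more than a number. The block called 0 of the 9 genes. Depth limits Plcb2, with 3 to 20 counts in 6 libraries.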
